A study of Mus musculus with 9 samples.

Results

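The cells described here were the ectodermal cells of the mouse forelimb bud that lay outside the apical ectodermal ridge by their transcripts, 996 of 83167 kept cells in 9 single-cell RNA-seq libraries holding 133086 barcodes. They were chosen by measured values: a barcode with more than 1000 genes, fewer than 200000 unique molecular identifiers (UMIs) and under 10% mitochondrial UMIs entered when at least 4 of the 7 genes *Epcam*, *Krt5*, *Perp*, *Cldn6*, *Cldn7*, *Sfn* and *Wnt6* had a UMI, when *Prrx1* UMIs did not exceed the sum of these 7 genes, and when no *Fgf8* UMI was present. The 218 cells that met the same limits but carried *Fgf8* are called ridge cells below, and the remaining 81953 are called other kept cells. The study compared wild-type (Wt) forelimb buds with forelimb buds homozygous for either of 2 enhancer deletions in the *Grem1* landscape, *EC1CRM8*Δ/Δ (E1C8Δ/Δ) and *EC1CRM5*Δ/Δ (E1C5Δ/Δ) and looked for changes that both alleles share. Both mutants lack the EC1 region, and each lacks a further element, CRM8 or CRM5. All embryos were on a Swiss Albino background, were collected at embryonic day E10.75 with 37 to 39 somites, and were of both sexes. Sex was read by setting *Xist* against Y-linked transcripts. All 3 Wt libraries were male, and 4 of the 6 mutant libraries, E1C8Δ/Δ replicates 1 and 2 and E1C5Δ/Δ replicates 1 and 3, were female. Sex is therefore partly confounded with genotype in every comparison with Wt. Some *Xist* was found in 2 libraries read as male, at 31.6 per 1000000 UMIs in Wt replicate 1 and 9.72 in E1C8Δ/Δ replicate 3. Each of the 3 libraries per genotype came from 1 pair of forelimb buds of a separate embryo, so the p-values below measure the spread between embryos and their libraries together.

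The limb ectoderm is a thin epithelium that covers the mesenchyme of the bud and is bound to it through a basement membrane. It signals to the mesenchyme below through secreted WNT proteins: dorsal ectoderm makes WNT7A, which specifies dorsal mesenchyme, whereas ventral ectoderm expresses the homeobox gene *En1*, which keeps *Wnt7a* off ventrally. At the distal border between these territories the ectoderm thickens into the apical ectodermal ridge, whose FGF8 maintains the outgrowing mesenchyme, and GREM1, a BMP antagonist made by the mesenchyme, helps to maintain the ridge.

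The number of ectodermal cells differed widely among libraries. The 3 Wt libraries held 90, 121 and 8 of them, the 3 E1C8Δ/Δ libraries 21, 299 and 240, and the 3 E1C5Δ/Δ libraries 76, 22 and 119. The library totals ranged from 26620760 to 500559729 UMIs. The ectodermal cells had a median of 13369.5 UMIs, and the medians per library lay between 11360.5 and 15838.5, against 17425 in other kept cells. No 2 libraries shared a barcode that was an ectodermal cell in both. Wt replicate 3, with 8 cells, was left out of the expression comparisons, so that Wt rested there on 2 libraries. By a comparison with artificial doublets, some ectodermal cells looked like mixtures of 2 cells. They numbered 6, 12 and 0 in Wt, 0, 36 and 66 in E1C8Δ/Δ and 2, 0 and 28 in E1C5Δ/Δ libraries. They were retained, and removed in an alternative. The share of kept cells to be marked in this way was set in advance per library. It was 12.5%, 13.3% and 6.30% in Wt, 2.06%, 12.3% and 22.8% in E1C8Δ/Δ and 11.3%, 7.996% and 17.96% in E1C5Δ/Δ. In ectoderm the marked share was 6.67%, 9.92% and 0% in Wt, 0%, 12.04% and 27.5% in E1C8Δ/Δ and 2.63%, 0% and 23.5% in E1C5Δ/Δ. The targeted gene *Grem1*, measured in the other kept cells, was at 31.8, 26.0 and 26.0 UMIs per 1000000 (CPM) in Wt, at 10.6, 10.5 and 11.9 CPM in E1C8Δ/Δ and at 15.0, 14.2 and 22.9 CPM in E1C5Δ/Δ, so that every mutant library lay below every Wt library.

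The thresholds cut through a continuum of depth. The 387 cells with all 7 genes had a median of 31742 UMIs and the 231 cells with exactly 4 of them a median of 6051 UMIs, while 296 cells just outside the limit, with 3 of the 7 genes, had a median of 4528.5 UMIs. A further 143 cells were outside because *Prrx1*, which encodes a homeobox factor of limb mesenchyme, exceeded the 7 genes. These cells were deep, with a median of 45892 UMIs, and held a median of 27 *Prrx1* UMIs. Of the ridge cells, 44 carried exactly 1 *Fgf8* UMI.

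The selected cells carried the markers of a surface epithelium. The values of the 7 rule genes describe the selection: in Wt, *Epcam*, an epithelial adhesion molecule, was at 409 ± 14.2 CPM (SD, n = 2), *Sfn*, a 14-3-3 protein of keratinocytes, at 398 ± 54.9 CPM, *Wnt6* at 276 ± 12.8 CPM, the basal keratin *Krt5* at 263 ± 21.1 CPM, and *Perp*, a desmosomal protein, at 194 ± 26.7 CPM. In the other kept cells of the Wt libraries none of these 5 genes was above 4.69 CPM. The assay counts UMIs at the 3′ end of transcripts, so these levels are not scaled by transcript length and levels of different genes are not compared as amounts. After each cell was thinned to 5000 UMIs, an *Epcam* UMI was found in 77.6% of the ectodermal cells and in 2.29% of the other kept cells, which include the cells just outside the limits, and a *Krt5* UMI in 60.4% and 0.646%. *Prrx1*, which the rule limited only from above, had a UMI in 34.5% of the thinned ectodermal cells and in 81.0% of other kept cells, with *Prrx1* at 82.3 ± 16.7 CPM in Wt ectoderm and 563 ± 42.3 CPM outside it.

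The genes highest in these cells included 12 that the rule did not use. The 19 genes given here from those with the highest ratio of Wt ectoderm to other kept cells, at 50 CPM or more in ectoderm, were *Sfn*, *Wnt6*, *Cldn7*, *Krt5*, *Perp*, *Cldn6*, *Bhlha9*, *Fermt1*, *Cldn3*, *Epcam*, *Hspb1*, *Krt19*, *Pdgfa*, *Krt7*, *Trp63*, *Krt8*, *Wnt4*, *Dsp* and *Cldn4*, with log2 ratios (CPM + 1) from 7.48 for *Sfn* to 6.08 for *Cldn4*. Since these cells were selected by ectodermal transcripts, the ratios are a description and carry no test. *Bhlha9*, a transcription factor gene of the limb ectoderm, was at 140 ± 9.91 CPM (SD, n = 2) in Wt ectoderm and 0.555 CPM in other kept cells of the same 2 libraries. *Trp63*, the master regulator of stratified epithelia, was at 115 ± 33.9 CPM, and *Pdgfa*, a growth factor read by mesenchymal PDGFRA, was at 419 ± 161 CPM against 4.57 CPM in those other cells. Leaving aside the 7 rule genes, whose excess the selection fixed, the other 12 were higher in ectoderm in each of the 6 mutant libraries as well, with a median log2 ratio of 6.05 in the mutants and 6.18 in Wt.

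**Figure D1:**
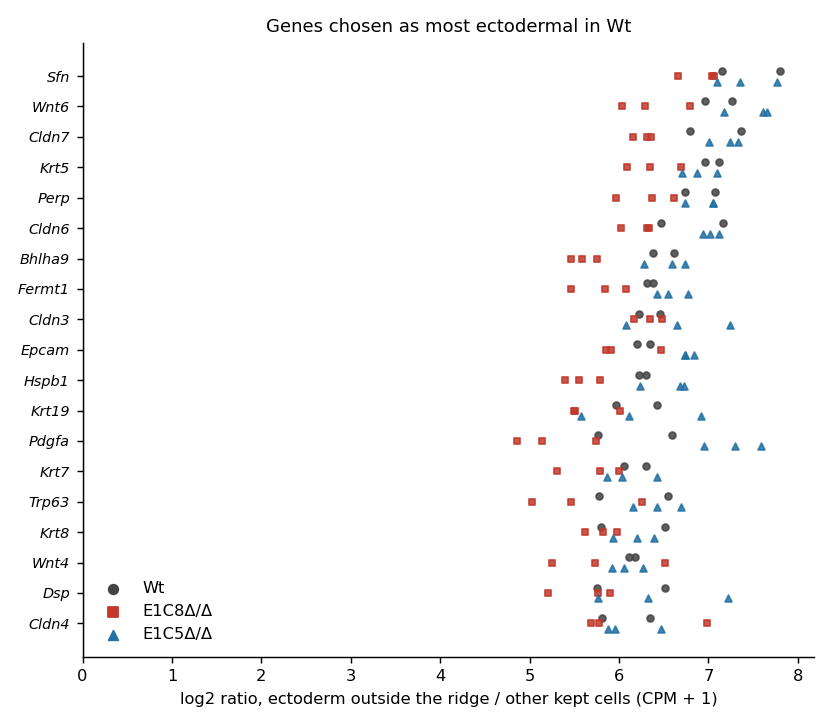
Log2 ratio of CPM + 1 between ectoderm outside the ridge and the other kept cells (x axis) for the 19 genes chosen as most ectodermal in Wt (y axis), with 1 symbol per library (2 Wt, 3 E1C8Δ/Δ, 3 E1C5Δ/Δ). Every symbol lies to the right of 0, and the Wt means run from 7.48 for *Sfn* to 6.08 for *Cldn4*.

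The promoters of these genes are shown because AP-2 factors are known regulators of the surface ectoderm and *Tfap2b* was at 212 ± 15.7 CPM and *Tfap2a* at 94.7 ± 22.0 CPM in Wt ectoderm. RefSeq promoters (GRCm38.p6, from 250 bases before to 50 bases after the start site) were matched for 16 of the 19 genes, giving 18 promoters; *Krt19*, *Perp* and *Trp63* had no entry. The palindromic AP-2 core GCCNNNGGC was in 8 of the 18 promoters and in 16.6% of all 32851 promoters of the same length. The ectodermal promoters also had a higher median GC content, 59.5% against 52.7%, and the part of base composition in the difference was not tested. Of the other motifs searched on both strands, AACNGGTT was in 1 of the 18 (*Sfn*) and in 2.09% of all. The AP-1 core TGANTCA was in 1 (*Cldn4*) and in 7.81% of all, and the TCF/LEF core CTTTGAT in 0 and in 3.73% of all. No gene held more than 1 of these 4 motifs. A match is a run of letters and not a measured binding site. The promoters of the WNT ligand gene *Wnt6* (chr1:74771642-74771941, + strand, match starting at -12 from the start site), of *Bhlha9* (chr11:76672220-76672519, + strand, match at -213) and of the desmosomal plaque gene *Dsp* (chr13:38151044-38151343, + strand, match at -75) read as follows, with the AP-2 core in capitals.
Wnt6: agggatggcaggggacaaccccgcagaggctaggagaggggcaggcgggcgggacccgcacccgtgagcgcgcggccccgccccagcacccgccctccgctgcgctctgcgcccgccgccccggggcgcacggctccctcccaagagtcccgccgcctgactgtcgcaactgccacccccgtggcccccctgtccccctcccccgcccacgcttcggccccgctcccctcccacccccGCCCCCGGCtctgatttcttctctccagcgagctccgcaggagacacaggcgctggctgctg
Bhlha9: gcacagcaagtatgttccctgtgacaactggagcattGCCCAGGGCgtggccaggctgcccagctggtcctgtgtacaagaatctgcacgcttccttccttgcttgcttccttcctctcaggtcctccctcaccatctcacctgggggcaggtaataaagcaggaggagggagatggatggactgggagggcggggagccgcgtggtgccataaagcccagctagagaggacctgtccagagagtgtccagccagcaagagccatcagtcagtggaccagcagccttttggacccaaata
Dsp: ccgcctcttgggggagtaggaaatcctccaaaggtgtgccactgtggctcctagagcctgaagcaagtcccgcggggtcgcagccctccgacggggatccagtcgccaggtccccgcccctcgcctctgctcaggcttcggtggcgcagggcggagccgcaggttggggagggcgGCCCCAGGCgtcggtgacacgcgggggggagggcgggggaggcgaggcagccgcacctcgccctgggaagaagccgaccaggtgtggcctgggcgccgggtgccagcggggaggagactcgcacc

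Keratins of basal and of simple epithelium were both detected. *Krt18* was at 272 ± 36.2 CPM and *Krt8* at 237 ± 39.1 CPM in Wt, next to *Krt5* at 263 ± 21.1 CPM and *Krt14* at 88.6 ± 2.35 CPM. After thinning to 5000 UMIs, a *Krt14* UMI was found in 29.8% of the ectodermal cells and 0.258% of the other kept cells, a *Krt8* UMI in 52.2% and 1.51%, and a *Krt18* UMI in 66.7% and 2.71%. *Krt5* is one of the rule genes, and its level describes the selection. Of the 12 listed simple and periderm keratins 9 had UMIs in the ectodermal cells, and the list summed to 668 to 809 CPM in Wt. *Krt19* was at 103 ± 19.8 CPM, *Krt7* at 93.7 ± 10.2 CPM and *Krt17* at 29.7 ± 3.87 CPM, whereas *Krt4*, *Krt6b* and *Krt13* had no UMI in any of the 8 libraries.

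The ectoderm expressed several WNT ligand genes besides *Wnt6*. In Wt ectoderm *Wnt4* was at 219 ± 12.2 CPM, *Wnt5a* at 93.1 ± 16.7 CPM and *Wnt3*, the WNT that induces the ridge in mouse, at 59.7 ± 2.58 CPM, whereas *Wnt3* was at 0.163 CPM and *Wnt4* at 1.85 CPM in other kept cells. *Wnt5a*, in contrast, was at 84.6 CPM in other kept cells. Of other secreted factors, *Igfbp5*, which binds insulin-like growth factors, was at 674 ± 111 CPM, the chemokine *Cxcl14* at 505 ± 146 CPM and *Igfbp2* at 287 ± 10.6 CPM. Of the receptors and regulators that read incoming signals, *Fgfr2* was at 110 ± 30.1 CPM in ectoderm and 17.3 CPM outside it, and *Notch1* was at 165 ± 79.4 CPM and 14.6 CPM. The BMP targets *Id3*, *Id2* and *Id1* were at 228 ± 39.7, 183 ± 73.6 and 171 ± 28.9 CPM. The hedgehog co-receptor gene *Gas1* was at 242 ± 62.0 CPM and the receptor gene *Ptch1*, itself a target of the pathway, at 64.0 ± 14.1 CPM. The 12 listed hedgehog pathway genes summed to 514 CPM in Wt ectoderm and 625 CPM in other kept cells, and 3 of them were higher in ectoderm. The 36 listed BMP pathway genes summed to 1445 and 1588 CPM, and 18 were higher in ectoderm. The part of mesenchymal RNA in these levels was not tested. *Hoxc8* had the highest CPM of the 39 listed HOX genes in Wt ectoderm, at 103 ± 4.26 CPM against 1.31 CPM in other kept cells. *Hes1*, a Notch target, was at 161 ± 1.29 CPM in Wt, 106 ± 13.2 CPM (SD, n = 3) in E1C8Δ/Δ and 128 ± 7.26 CPM (n = 3) in E1C5Δ/Δ ectoderm, and no Notch pathway gene passed the test between genotypes given below.

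Markers of other cell types set the limits of the selection. The 14 mesenchyme markers summed to 904 to 910 CPM in the ectoderm of the 2 larger Wt libraries. In the other kept cells of Wt, with Wt replicate 3 included, they summed to 2322 to 2724 CPM. Of these markers 2, the proximal genes *Meis1* and *Meis2*, were higher in ectoderm. Globin and other erythroid transcripts summed to 1818 to 9882 CPM in Wt, 343 to 6718 CPM in E1C8Δ/Δ and 378 to 3148 CPM in E1C5Δ/Δ ectoderm, with 8728 to 66121, 12973 to 31193 and 5533 to 16221 CPM in the other kept cells of these genotypes. Over the 8 libraries the endothelial markers summed to 4.11 to 445 CPM, the macrophage markers to 1.76 to 57.6 CPM and the platelet markers to 2.02 to 1852 CPM. *Sox10* and *Foxd3*, defining genes of neural crest, had no UMI in the ectodermal cells of the 8 libraries, although *Erbb3*, which crest cells also express, was at 35.5 ± 11.3 CPM. A single cell of Wt replicate 2, with 116851 UMIs, held 95.3% of the 3940 UMIs of the platelet gene *Pf4* there, and 144 of 150 *Plek* UMIs, and *Pf4* was at 1075 CPM in that library and 21.7 CPM in Wt replicate 1. The other library with *Pf4* above 1000 CPM was E1C5Δ/Δ replicate 2, at 1752 CPM, where all 1158 *Pf4* UMIs came from 1 of 22 cells. That cell held 156793 of the 660873 UMIs summed for this library.

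Cells with a dorsal and cells with a ventral marker were largely different cells. A *Wnt7a* UMI was present in 172 cells (17.3%) and an *En1* UMI in 355 (35.6%), against 0.436% and 1.27% of other kept cells. After thinning to 5000 UMIs the shares were 6.88% and 23.2%, against 0.110% and 0.380%. By detected UMIs, 149 cells held *Wnt7a* only, 332 *En1* only, 23 held both and 492 neither. *Wnt7a* was found in 6.48% of the cells with *En1* and in 23.2% of the cells without it. The cells with both were the deepest, with a median of 47081 UMIs, against 21272 for cells with 1 of the genes and 8031 for cells with neither, so a cell without either gene was more often a shallow one. Of the cells with exactly 1 of the 2 genes, 69.0% had *En1*.

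Transcripts that went with each territory were chosen in Wt, 10 on each side, and followed in the mutants. In the 2 larger Wt libraries, *Gjb2*, a connexin gene, was at 146 CPM in *Wnt7a*-only and 31.7 CPM in *En1*-only cells, and *Gap43* at 84.5 and 17.2 CPM. Both were also higher in *Wnt7a*-only cells in all 4 mutant libraries with at least 10 cells of each kind, with mean log2 ratios of 2.18 and 1.89, and they were the only genes besides *Wnt7a* among the 10 selected in Wt to be so. Of the genes highest in *En1*-only cells, *Gpx2*, a glutathione peroxidase, was at 181 CPM against 77.2 CPM in *Wnt7a*-only cells, the WNT receptor gene *Fzd1* at 63.0 against 20.7 CPM, the BMP target *Msx2* at 53.2 against 17.5 CPM, and *Bambi*, a decoy receptor for BMP, at 62.8 against 29.1 CPM. With *Zfhx4* and *Ptn*, these 4 made up the 6 of 9 genes besides *En1*, which sorted the cells, that were higher in *En1*-only cells in all 4 mutant libraries. The other three were *Shox2*, *Mecom* and the mesenchyme marker *Prrx1*, each higher in *En1*-only cells in 3 of the 4. *Prrx1* was at 88.0 CPM in *En1*-only and 42.0 CPM in *Wnt7a*-only cells of Wt. Its log2 ratio of *Wnt7a*-only over *En1*-only cells was -3.45 in Wt replicate 1 and 0.43 in Wt replicate 2. In the same order this ratio was -4.75 and 0.51 for *Zfhx4*, -3.27 and -0.04 for *Shox2* and -2.79 and 0.02 for *Mecom*. For *Gpx2*, *Fzd1*, *Msx2*, *Bambi* and *Ptn* it was negative in both Wt libraries. The part of mesenchymal RNA in this list was not tested. Because the cells were sorted by the 2 genes and then ranked, these ratios carry no test. *Pf4*, *Plek*, *Rab27b* and *Rabgap1l* also ranked among the first 10 on the *Wnt7a* side, and from 77.5% to 96.0% of their UMIs in Wt replicate 2 came from the single cell named above.

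The ectoderm outside the ridge and the ridge cells, which the rule separated by *Fgf8*, are set side by side as a description. Besides *Fgf8*, which the rule used, *Bambi* was at 749 CPM in Wt ridge cells and 48.1 CPM outside, *Bmp4* at 307 and 23.4 CPM, *Rspo2*, which amplifies WNT signals, at 71.1 and 3.29 CPM, *Dlx5* at 63.9 and 5.49 CPM, and *Smpd3* at 53.4 and 0.460 CPM. The 9 genes chosen as ridge-high in Wt besides *Fgf8* were higher in the ridge in each of the 3 mutant libraries with at least 10 ridge cells. On the other side, *Tfap2b* was at 212 CPM outside and 39.1 CPM in the ridge, *Gjb2* at 79.4 and 10.755 CPM, *Arg1*, arginase, at 65.5 and 8.44 CPM, *Sost*, which encodes a WNT inhibitor, at 68.9 and 27.6 CPM, and *Wnt7b* at 50.9 and 17.7 CPM. These 5 were among the 8 of 10 genes that were higher outside the ridge in all 3 mutant libraries, and *Meg3* and *Olfm1* were not. *Pf4* ranked first on this side, at 548 CPM outside and 1.29 CPM in the ridge of Wt, and also belonged to the 8, but 3754 of its 3940 UMIs in Wt replicate 2 came from the single cell named above. *En1* was at 71.4 ± 3.96 CPM outside the ridge and 118 CPM in it.

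**Figure D2:**
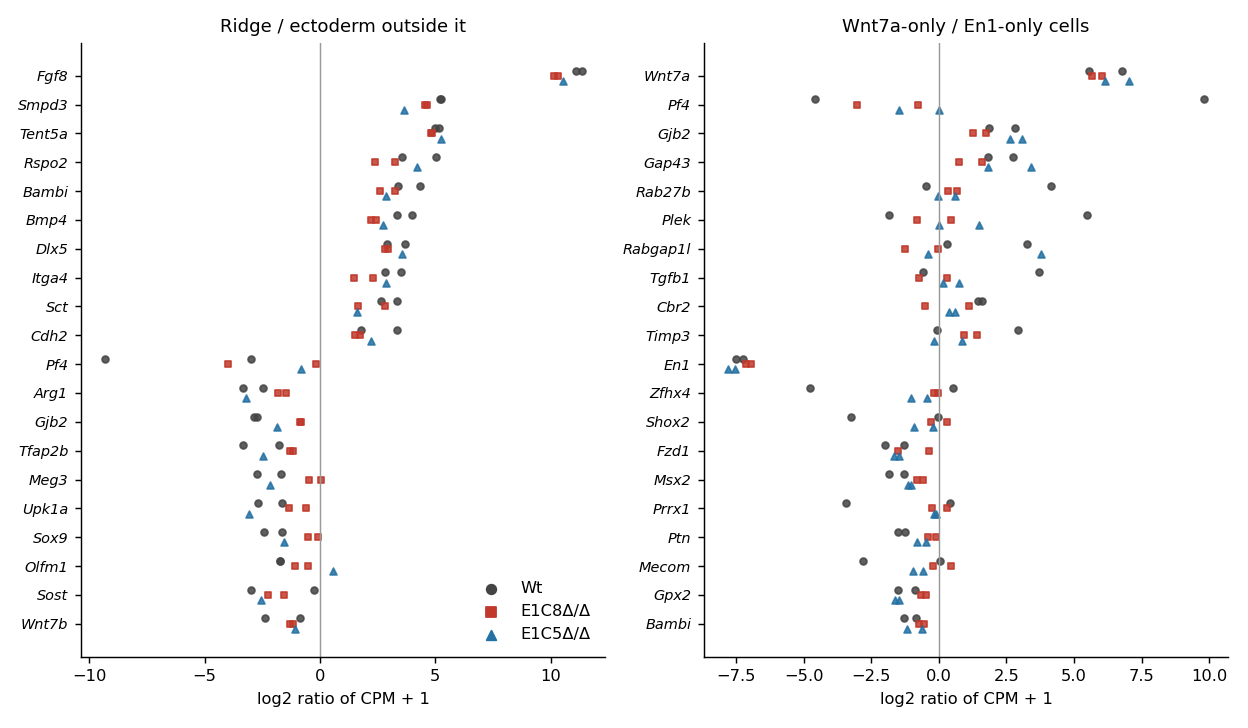
Log2 ratios of CPM + 1 (x axes) per library for the genes chosen in Wt (y axes), between ridge cells and ectoderm outside it (left) and between *Wnt7a*-only and *En1*-only cells (right); symbols mark genotype. *Bambi*, *Bmp4* and *Tfap2b* lie on the same side of 0 in every library shown, whereas *Pf4* on the right lies at 9.82 in Wt replicate 2 and at or below 0 in every other library.

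The share of ectoderm among kept cells was then compared between genotypes, which asks whether the *Grem1* deletions changed the cell makeup of the bud. It was 0.950%, 0.830% and 0.435% in Wt, 1.83%, 2.54% and 1.52% in E1C8Δ/Δ, and 0.703%, 0.586% and 0.846% in E1C5Δ/Δ. The E1C8Δ/Δ libraries lay above all others, whereas Wt and E1C5Δ/Δ overlapped. Both mutants together exceeded Wt by 0.600 percentage points (1.34 ± 0.767% against 0.738 ± 0.270%, n = 6 and 3), and the two-sided exact permutation test over libraries gave p = 0.274. E1C8Δ/Δ lay 1.23 points above Wt and 1.25 points above E1C5Δ/Δ, each with an exact permutation p = 0.1, the smallest that 3 against 3 libraries allow. E1C5Δ/Δ differed from Wt by -0.0267 points, exact permutation p = 1. Adjusted over the 16 comparisons of shares, the smallest Benjamini-Hochberg value of these exact tests was 0.533. The E1C8Δ/Δ libraries remained above all others without the doublet-like cells, at 1.43% to 2.55%, and under a stricter limit, with 10 times the *Prrx1* UMIs not above the sum of the 7 rule genes, at 0.952% to 1.56%. The kept cells differed in depth, with medians of 25391, 21365 and 8625 UMIs in Wt, 9016, 16212 and 14383 UMIs in E1C8Δ/Δ and 5670, 20095 and 25482 UMIs in E1C5Δ/Δ. Under that stricter limit both mutants exceeded Wt by 0.288 points (exact permutation p = 0.31). A share of captured cells can also depend on depth, and its part in the difference was not tested.

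Within the ectoderm, cells with *Fgf8* made up 17.4%, 23.9% and 46.2% in Wt, 25.0%, 12.5% and 15.2% in E1C8Δ/Δ, and 8.45%, 21.1% and 9.73% in E1C5Δ/Δ after thinning each cell to 5000 UMIs. In the other kept cells an *Fgf8* UMI was found in 0.755% of Wt, 1.29% of E1C8Δ/Δ and 0.320% of E1C5Δ/Δ cells at this depth, and without thinning in 3.98%, 4.15% and 1.23%. The mutant mean was 13.9 points below Wt (15.3 ± 6.53% against 29.2 ± 15.1%, n = 6 and 3), with an exact permutation p = 0.0714, and the groups overlapped. The value of 46.2% came from 13 cells of Wt replicate 3. Without that library the difference was -5.38 points (exact permutation p = 0.357), and without E1C8Δ/Δ replicate 1 it was -15.8 points (p = 0.0357 by the same exact test).

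**Figure D3:**
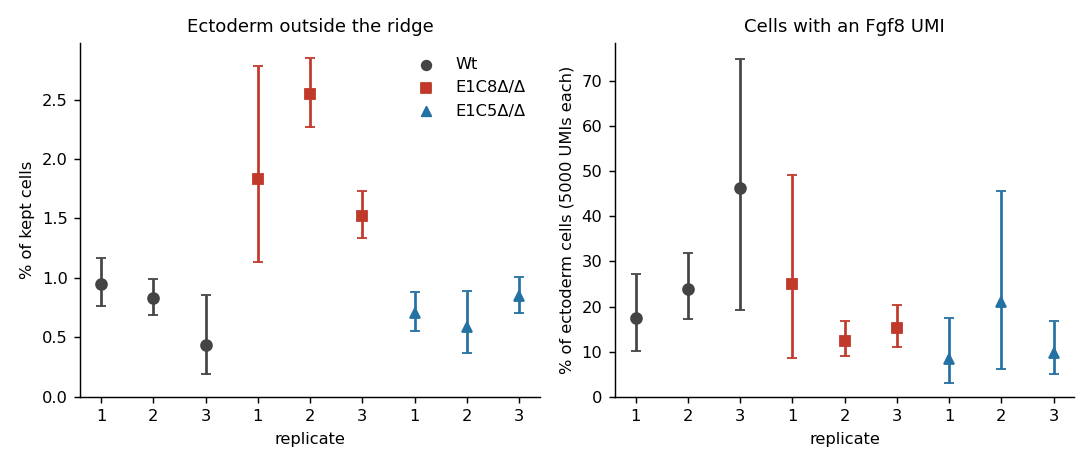
Share of kept cells that were ectoderm outside the ridge (left, %) and share of ectodermal cells with an *Fgf8* UMI at 5000 UMIs per cell (right, %) for the 3 replicates of each genotype (x axes), with 95% exact binomial intervals that cover counting error only. The 3 E1C8Δ/Δ points on the left, from 1.52% to 2.54%, lie above the other 6.

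The dorsal and ventral shares overlapped between the genotypes at 5000 UMIs per cell. A *Wnt7a* UMI was found at 5000 UMIs per cell in 8.70% and 4.95% of cells in the 2 Wt libraries, in 0%, 4.67% and 6.50% in E1C8Δ/Δ and in 9.23%, 0% and 14.9% in E1C5Δ/Δ, where both zeros came from 15 cells and allow up to 21.8% of cells with a UMI at this depth (exact binomial). Without thinning, 2 of 21 and 2 of 22 cells of these libraries held a *Wnt7a* UMI. The difference of both mutants from Wt was -0.948 points, exact permutation p = 0.893. Without thinning the *Wnt7a* shares were 24.4% and 18.2% in Wt, 9.52%, 14.05% and 13.75% in E1C8Δ/Δ and 18.4%, 9.09% and 27.7% in E1C5Δ/Δ, so that E1C8Δ/Δ lay below Wt there, and both mutants differed from Wt by -5.89 points (exact permutation p = 0.357). At 10000 UMIs per cell the difference was 0.144 points (exact permutation p = 1). For *En1* the shares were 21.7% and 24.8% in Wt, 13.3%, 21.4% and 25.0% in E1C8Δ/Δ and 16.9%, 40.0% and 26.7% in E1C5Δ/Δ, a difference of 0.653 points with an exact permutation p = 0.929. In summed expression *Wnt7a* was at 50.6 and 17.7 CPM in Wt and at 11.7, 12.5 and 10.752 CPM in E1C8Δ/Δ, and at 22.3, 7.57 and 40.8 CPM in E1C5Δ/Δ, which overlapped Wt. The difference of E1C8Δ/Δ from Wt, a log2 fold change of -1.48 ± 0.46 (SE), did not pass edgeR's quasi-likelihood test (Benjamini-Hochberg adjusted p = 0.327).

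Few genes of the ectodermal cells, with UMIs summed per library, passed the test between the mutants and Wt. Of 11163 genes tested with edgeR, 1 gene (0.00896%) was called at an adjusted p under 0.05 for both mutants against Wt, 1 (0.00896%) for E1C8Δ/Δ against Wt and 0 (0.0%) for E1C5Δ/Δ against Wt. At an unadjusted p under 0.05 the counts were 537, 1135 and 361 of the 11163 genes. A share of 0.05 of the genes would pass that threshold on average if none differed. DESeq2 called 3, 22 and 0, with 145 genes at an unadjusted p under 0.05 for E1C5Δ/Δ. These comparisons share the Wt libraries. Leaving aside the 7 rule genes, by which the cells were selected, none of the WNT ligands, the WNT, BMP, FGF, hedgehog or Notch pathway genes, the ridge genes, the HOX genes, the keratins, the junction genes or the cell cycle genes was called in any of the 3 comparisons with Wt. The median log2 fold change of both mutants against Wt was -0.12 over 13 WNT ligands, -0.13 over 19 tight junction genes, -0.24 over 18 adherens junction and desmosome genes, -0.23 over 26 epidermal transcription factor genes, 0.30 over 29 HOX genes and 0.12 over 37 cell cycle genes, beside -0.01 over all genes tested. Under the stricter limit on *Prrx1* these medians were -0.23, -0.04, -0.13, -0.08, 0.08 and 0.06 in the same order. The medians were taken over whole lists, so that rule genes within a list were not set aside there. Without single libraries the first count ranged from 0 to 3: it was 1 without Wt replicate 1, where the gene called was *Tmc6*, lower in the mutants, and not *Gm11361*, 0 without each of E1C8Δ/Δ replicates 1, 2 and 3 and without E1C5Δ/Δ replicate 1, 2 without Wt replicate 2, where *Gm11361* was again not among them, 2 without E1C5Δ/Δ replicate 2, and 3 without E1C5Δ/Δ replicate 3. The second count was 3 without Wt replicate 1, 2 without Wt replicate 2, 3 without E1C8Δ/Δ replicate 3, 4 without E1C5Δ/Δ replicate 1 and 11 without E1C5Δ/Δ replicate 3. The third was 1 without Wt replicate 1, 2 without Wt replicate 2 and 1 without E1C5Δ/Δ replicate 3.

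The gene called in the first 2 comparisons was *Gm11361*, which RefSeq annotates as a pseudogene of the ribosomal protein gene *Rps18* (GRCm38 with GENCODE coordinates, chr13:28257528-28258134, + strand). It was at 51.0 and 45.0 CPM in Wt, at 195, 198 and 194 CPM in E1C8Δ/Δ and at 68.7, 48.4 and 66.3 CPM in E1C5Δ/Δ ectoderm. The E1C8Δ/Δ libraries therefore stood clear of all others. For both mutants against Wt the log2 fold change of *Gm11361* was 1.23 ± 0.16 (edgeR, adjusted p = 0.0477), and it was called in 11 of 21 alternatives. The call was lost with sex as a covariate (edgeR, adjusted p = 1.00) and under the stricter limit on *Prrx1* (edgeR, adjusted p = 0.183), and over all alternatives the adjusted p ran from 3.7e-09 to 1.00. The log2 fold change was 1.22 under that limit and ran from 1.12 to 1.29 over all alternatives. Against Wt alone, *Gm11361* rose in E1C8Δ/Δ by 2.05 ± 0.17 on the log2 scale (edgeR, adjusted p = 0.00047) and was called in 21 of 21 alternatives, whereas in E1C5Δ/Δ the difference was 0.41 ± 0.17 (edgeR, adjusted p = 1). In the other kept cells *Gm11361* was at 38.6 ± 12.6 CPM in Wt, 187 ± 2.68 CPM in E1C8Δ/Δ and 50.8 ± 14.1 CPM in E1C5Δ/Δ, so the libraries separated there in the same way. Reads of such a copy and of its parent gene are hard to tell apart, and the value is uncertain for that reason.

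*Eif3j2*, a translation initiation factor subunit gene named after its values were seen, lay just outside the threshold. It was at 49.8 and 24.5 CPM in Wt, 9.77, 4.29 and 2.86 CPM in E1C8Δ/Δ and 9.39, 12.4 and 2.91 CPM in E1C5Δ/Δ ectoderm, and every mutant library lay below both Wt libraries. For both mutants against Wt the log2 fold change of *Eif3j2* was -2.85 ± 0.40 (edgeR, adjusted p = 0.0648), with -3.19 for E1C8Δ/Δ (edgeR, adjusted p = 0.16) and -2.52 for E1C5Δ/Δ (edgeR, adjusted p = 1.00). It was called for both mutants in 9 of 21 alternatives, over which the adjusted p ran from 7.63e-21 to 1.00, and not with sex as a covariate (edgeR, adjusted p = 1.00) with the replicate block (edgeR, adjusted p = 0.0964) or without Wt replicate 1. In the other kept cells *Eif3j2* was at 30.8 ± 16.5 CPM in Wt, 3.11 ± 0.527 CPM in E1C8Δ/Δ and 8.78 ± 5.55 CPM in E1C5Δ/Δ, again without overlap of the mutants and Wt. Reads of its paralog *Eif3j1* can be hard to tell from its own, so the value is uncertain.

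The contrast between the mutant alleles gave more genes. Between E1C8Δ/Δ and E1C5Δ/Δ, 16 genes (0.143% of those tested) were called, 11 (0.0985%) higher and 5 (0.0448%) lower in E1C8Δ/Δ, with 1398 genes at an unadjusted p under 0.05. The count rested on single libraries: it was 4 without Wt replicate 1, 4 without Wt replicate 2, 1 without E1C8Δ/Δ replicate 1, 1 without replicate 2 and 2 without replicate 3 of that genotype, 9 without E1C5Δ/Δ replicate 1, 6 without its replicate 2 and 83 without its replicate 3. It was 67 with DESeq2 and 3 with embryo sex, read from *Xist* and Y-linked genes, as a covariate. Among the 5 lower genes, *Itga6*, which encodes the α6 integrin of hemidesmosomes (chr2:71745616-71858416, + strand), was at 46.9, 47.1 and 49.7 CPM in E1C8Δ/Δ, at 74.6, 132 and 119 CPM in E1C5Δ/Δ and at 85.1 and 60.3 CPM in Wt. The mutants did not overlap, and the log2 fold change of *Itga6* was -1.12 ± 0.19 (edgeR, adjusted p = 0.0468). *Ndrg1*, a stress-responsive gene, was at 4.69, 5.59 and 5.83 CPM in E1C8Δ/Δ and at 16.4, 15.1 and 21.2 CPM in E1C5Δ/Δ (log2 fold change -1.67 ± 0.28, edgeR adjusted p = 0.0468). These *Ndrg1* levels rested on 2, 35 and 32 UMIs in E1C8Δ/Δ and on 28, 10 and 84 UMIs in E1C5Δ/Δ. *Btbd3* (-1.29), the linker histone gene *Hist1h1e* (-1.26) and *Nfe2l1* (-0.93), a transcription factor gene of proteasome genes, completed the 5. In Wt ectoderm *Itga6*, *Ndrg1* and *Btbd3* were at 72.7, 11.9 and 36.4 CPM, and in other kept cells at 10.9, 0.813 and 15.8 CPM.

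Of the 11 genes higher in E1C8Δ/Δ, 8 were at a higher level in other kept cells than in ectoderm of Wt. *Pax3*, a gene of migrating muscle progenitors, had the highest log2 fold change, 4.13 ± 0.63, from 7.04, 21.2 and 17.3 CPM in E1C8Δ/Δ and 2.35, 0 and 0.504 CPM in E1C5Δ/Δ, with UMIs in 1, 21 and 19 E1C8Δ/Δ cells. *Meox2* was at 16.4, 14.2 and 16.8 CPM in E1C8Δ/Δ and 1.17, 0 and 3.02 CPM in E1C5Δ/Δ (log2 fold change 2.91 ± 0.43). These *Meox2* levels rested on 7, 89 and 92 UMIs in E1C8Δ/Δ and on 2, 0 and 12 UMIs in E1C5Δ/Δ. *Scx*, a gene of tendon progenitors, was at 23.5, 23.6 and 29.5 against 4.70, 7.57 and 9.58 CPM (1.78 ± 0.28). *Mab21l2* was at 44.6, 50.5 and 51.8 against 9.98, 15.1 and 15.6 CPM (1.89 ± 0.23, edgeR adjusted p = 0.0136). In Wt, these 4 genes were at 33.3 (*Pax3*), 53.1 (*Meox2*), 67.1 (*Scx*) and 182 CPM (*Mab21l2*) in other kept cells and at 6.60, 10.6, 15.6 and 23.6 CPM in ectoderm. The imprinted neighbours *Dlk1* (1.59 ± 0.27) and *Meg3* (0.85 ± 0.14), with *Mpped2* (0.96 ± 0.15) and *6330403K07Rik* (0.86 ± 0.14), belonged to these 8 as well. *Gm11361* (1.64 ± 0.15, edgeR adjusted p = 0.00147), *Gm266* (2.02 ± 0.33) and *Raet1e* (1.90 ± 0.31), a stress ligand gene whose paralogs can share its reads, were not. *Raet1e* was at 17.6 and 18.3 CPM in Wt, 16.4, 16.0 and 12.9 CPM in E1C8Δ/Δ and 5.29, 4.54 and 3.02 CPM in E1C5Δ/Δ. The mutant levels rested on 7, 100 and 71 UMIs in E1C8Δ/Δ and on 9, 3 and 12 UMIs in E1C5Δ/Δ. The *Raet1e* difference of E1C5Δ/Δ from Wt, -2.17 on the log2 scale, had an edgeR adjusted p of 0.205. The 6 genes beyond the first 5 in this direction, *Scx*, *Gm11361*, *Dlk1*, *Mpped2*, *6330403K07Rik* and *Meg3*, are named because they complete the called set, a choice made after their values were seen. All genes of this contrast for which no adjusted p is given here had 0.0468 in edgeR. In the other kept cells, 11 of the 16 genes differed between the mutants in the same direction with no overlap of libraries, beside 27.4% of all genes tested.

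**Figure D4:**
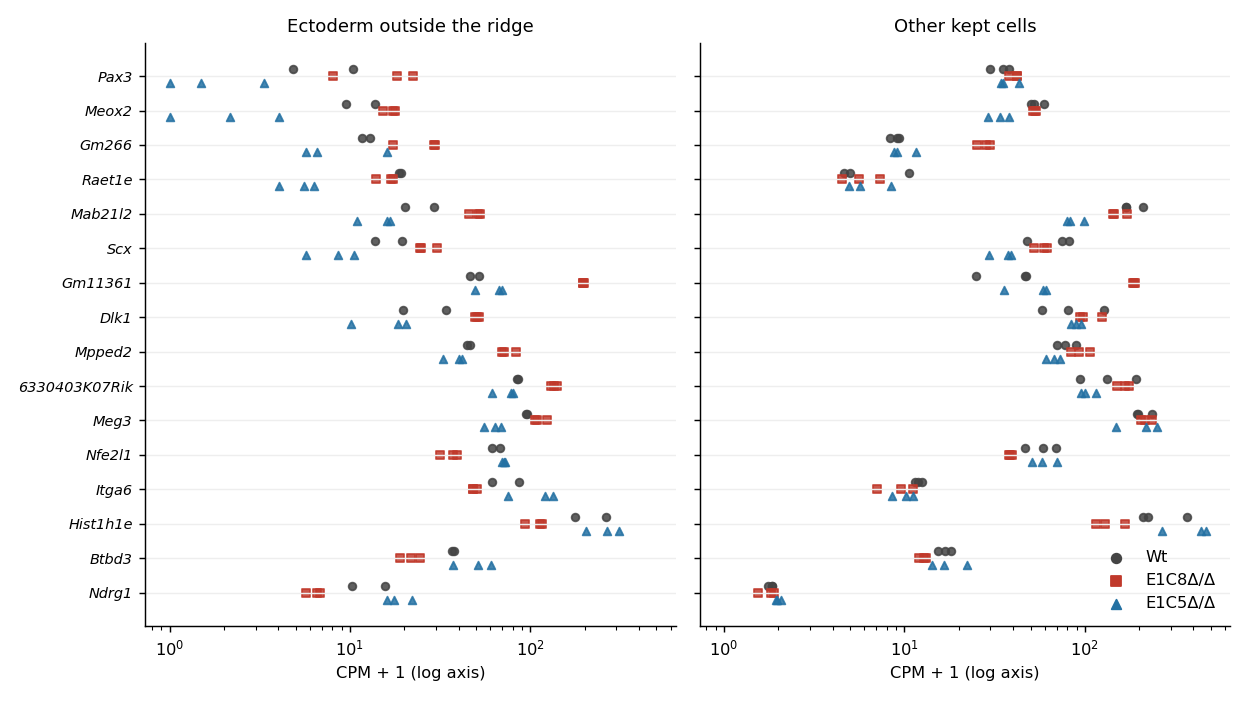
CPM + 1 (log axes) of the 16 genes that differed between E1C8Δ/Δ and E1C5Δ/Δ, in ectoderm outside the ridge (left, 8 libraries) and in other kept cells (right, 9 libraries), 1 symbol per library. *Gm11361* separates E1C8Δ/Δ in both panels, whereas *Raet1e*, *Itga6* and *Pax3* separate the mutants on the left only.

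Mesenchymal transcripts moved with this contrast. Of the 14 mesenchyme markers, all tested, 12 were higher in E1C8Δ/Δ than in E1C5Δ/Δ, with a median log2 fold change of 1.05 beside -0.02 over all genes tested. Only *Meox2* was called, and 8 of the 14 had libraries that did not overlap between the mutants, beside 18.4% of all genes tested. *Prrx1* was at 188, 202 and 188 CPM in E1C8Δ/Δ, at 38.8, 27.2 and 124 CPM in E1C5Δ/Δ and at 70.5 and 94.1 CPM in Wt ectoderm. The rule limited *Prrx1* from above, against the sum of the rule genes, so its values in part describe the selection. The counts, medians and sums of mesenchyme markers did not set *Prrx1* aside. The marker sum was 1160 to 1284 CPM in E1C8Δ/Δ, 570 to 1047 CPM in E1C5Δ/Δ and 904 to 910 CPM in Wt. Under the stricter limit on *Prrx1*, 1 of the 16 genes, *Gm11361*, was still called, all 16 had the same sign and 10 had a smaller fold change. That limit left the difference in the mesenchyme markers in place, with 11 of 14 higher in E1C8Δ/Δ and a median of 1.05. The part of mesenchymal RNA in the calls was not tested.

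Basement membrane genes lay on the other side. Of the 24 listed genes, 22 were tested, and 21 of these were lower in E1C8Δ/Δ than in E1C5Δ/Δ, against 52.3% of all genes tested. Their median log2 fold change was -0.59, and 11 of the 22 had libraries that did not overlap between the mutants, all of them lower in E1C8Δ/Δ, beside 18.4% of all genes tested that did not overlap, 986 of the 11163 in this direction. Only *Itga6* was called. *Dag1*, which encodes the laminin receptor dystroglycan, was at 115, 126 and 112 CPM in E1C8Δ/Δ and at 208, 188 and 205 CPM in E1C5Δ/Δ, with 234 and 152 CPM in Wt (log2 fold change -0.76 ± 0.16, edgeR adjusted p = 0.093). *Itgb1* was at 130 ± 14.2 CPM and 171 ± 7.66 CPM, *Col4a2* at 101 ± 30.5 and 154 ± 48.2 CPM, and *Col4a1* at 123 ± 18.9 and 190 ± 107 CPM in E1C8Δ/Δ and E1C5Δ/Δ. Against Wt, the median log2 fold change of the 22 genes was -0.47 for E1C8Δ/Δ and 0.18 for E1C5Δ/Δ, with no gene called in either comparison. With the strict limit on *Prrx1* the median between the mutants was -0.44 and 21 of 22 genes were below 0, while the mesenchyme markers still differed by a median of 1.05. In Wt, 21 of the 24 genes were at a higher level in ectoderm than in other kept cells. The mesenchyme markers given above were higher in E1C8Δ/Δ in this contrast. Of the 7 endothelial markers tested, 6 were lower in E1C8Δ/Δ, with a median of -0.50, and 5 of 7 under the stricter limit, with a median of -1.64. All 4 platelet markers tested were lower, with a median of -2.56. The mutant libraries overlapped for every endothelial and platelet marker tested. The part of mesenchymal, endothelial and platelet RNA in the contrast of basement membrane genes was not tested.

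**Figure D5:**
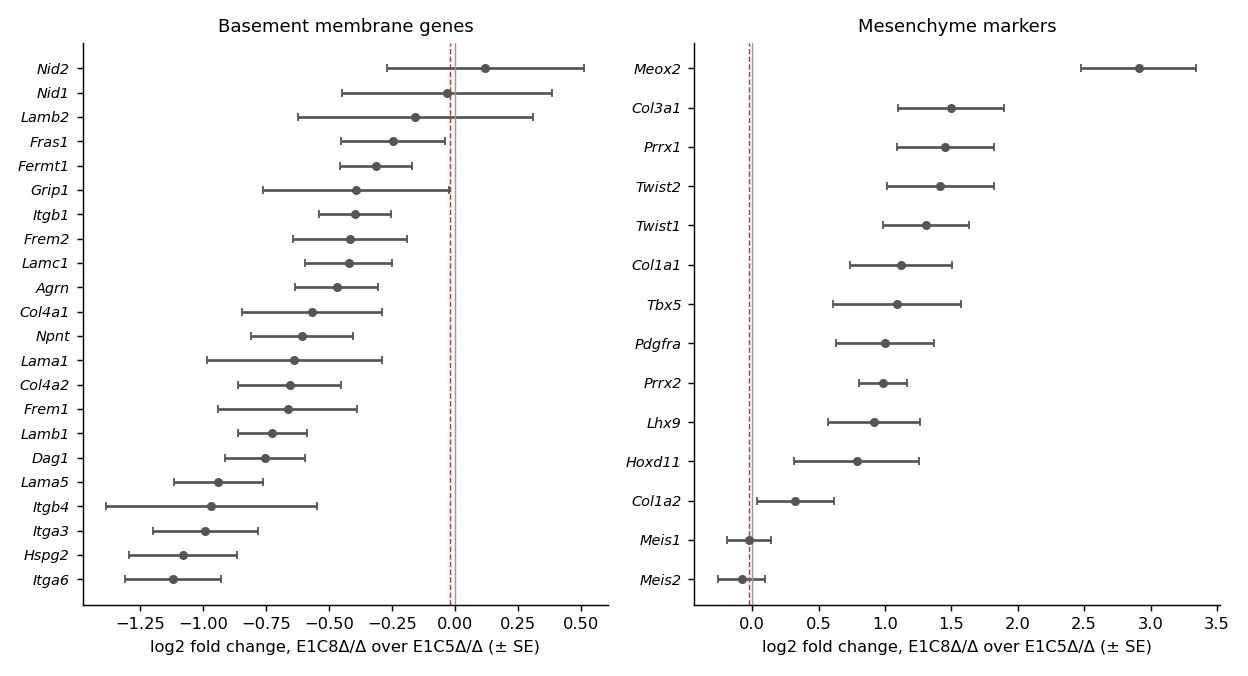
Log2 fold change of E1C8Δ/Δ over E1C5Δ/Δ with its standard error (x axes) for the 22 tested basement membrane genes and the 14 mesenchyme markers (y axes); the grey line marks 0 and the dashed line the median over all genes tested, -0.02. All but 1 basement membrane gene lie left of 0 and 12 of 14 mesenchyme markers right of it.

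Other ectodermal gene groups are given beside this one. Between the mutants, 15 of 19 tight junction genes and 15 of 18 adherens junction and desmosome genes were lower in E1C8Δ/Δ, with medians of -0.30 and -0.22, beside 52.3% of all genes tested that were lower, and none of either group was called. The mutant libraries did not overlap for 6 (31.6%) and 3 (16.7%) of these genes, beside 18.4% of all genes tested, and 2 of the 6 were higher in E1C8Δ/Δ. Under the stricter limit on *Prrx1* this lean was not seen, with 10 of 20 tight junction genes lower (median 0.03) and 10 of 18 adherens junction and desmosome genes lower (median -0.08). Rule genes within the lists of this paragraph were not set aside, and the stricter limit weighs *Prrx1* against the sum of the rule genes. Of the 7 rule genes, 3 were higher in E1C8Δ/Δ at first and 5 under that limit. The part of this filter in the change was not tested. Of the 26 epidermal transcription factor genes 21 were lower, with a median of -0.29, and 13 were lower under the stricter limit, with a median of -0.03. Of the 13 WNT ligands 10 were lower, with a median of -0.25, against 7 of 12 and -0.14 under the stricter limit, and the mutant libraries overlapped for all 13. HOX genes leaned the other way, with 21 of 29 higher in E1C8Δ/Δ and a median of 0.24, and with 19 of 28 and 0.26 under the stricter limit. The mutant libraries did not overlap for 7 of the 29 (24.1%), beside 18.4% of all genes tested. *Hoxa10*, a HOX gene of mesenchyme named after its values were seen, was at 63.3 ± 10.5 CPM in E1C8Δ/Δ, 17.9 ± 8.35 CPM in E1C5Δ/Δ and 143 CPM in other kept cells of Wt. The 8 erythroid genes tested included 7 that were higher in E1C8Δ/Δ, with a median of 1.16, and the mutant libraries overlapped for all 8. Under the stricter limit 7 of 8 were higher, with a median of 0.92.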

How the data were processed

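The authors aligned and counted the reads with Cell Ranger (6.0.1 in the submitters' notes) on mm10 and deposited raw matrices of UMI counts per gene and barcode; Seurat 4.3.0.1 is also listed there. The study kept cells with more than 2500 genes; here more than 1000 genes, under 200000 UMIs and under 10% mitochondrial UMIs were required. The members and gene lists were chosen with earlier results of these data known. For each library the counts of its members were added up, and the sums entered edgeR 4.0.16 (R 4.3.3; TMM, filterByExpr, quasi-likelihood F test, Benjamini-Hochberg adjusted p under 0.05) over libraries with at least 10 members, without X, Y, mitochondrial and transgene features. Library groups came from the sample labels. Shares were compared by two-sided exact permutation tests over libraries. Intervals are exact binomial at 95% and, like floors, cover counting error only. Doublet-like cells, a share of kept cells fixed in advance per library, were marked from 50 nearest neighbours among real and artificial cells and kept. Named genes were the rule genes, *Grem1*, *Prrx1*, *Fgf8*, *En1* and *Wnt7a*; per list, called genes and the 4 highest in Wt ectoderm; up to 10 (mutants against Wt) or 5 (E1C8Δ/Δ against E1C5Δ/Δ) called genes per direction; and the 20 or 10 genes with the highest ratios, with at least 50 CPM; 1 of the 20 is not reported here. The fit was tested on simulated data. Alternatives were DESeq2 1.42.0, other scaling, filters and member rules, a sex covariate, a replicate block and leaving out each library.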

Additional observations from a re-analysis of the deposited data

Results flagged for a closer look

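For 16 genes the levels in the summed ectodermal cells differed between E1C8Δ/Δ and E1C5Δ/Δ by the test of that difference (edgeR, adjusted p under 0.05). Of these genes only *Gm11361* was also called in a comparison with Wt. The part of mesenchymal RNA in these differences was not tested. The differences, E1C8Δ/Δ minus E1C5Δ/Δ on the log2 scale, were 4.13 for *Pax3*, 2.91 for *Meox2*, 2.02 for *Gm266*, 1.90 for *Raet1e*, 1.89 for *Mab21l2*, 1.78 for *Scx*, 1.64 for *Gm11361*, 1.59 for *Dlk1*, 0.96 for *Mpped2*, 0.86 for *6330403K07Rik* and 0.85 for *Meg3*. They were -1.67 for *Ndrg1*, -1.29 for *Btbd3*, -1.26 for *Hist1h1e*, -1.12 for *Itga6* and -0.93 for *Nfe2l1*. Under the stricter limit on *Prrx1* these differences were 2.92 for *Pax3*, 0.47 for *Meg3* and -1.06 for *Itga6*, none of which was then called. *Gm11361*, at 1.67 (edgeR, adjusted p = 0.00867), was called.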

How the results depend on the processing

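Counts of called genes are given for both mutants, E1C8Δ/Δ and E1C5Δ/Δ against Wt and for E1C8Δ/Δ against E1C5Δ/Δ, beside 1, 1, 0 and 16. They were 3, 22, 0 and 67 with DESeq2, 111, 217, 125 and 484 with no filter on low counts, 0, 1, 0 and 2 with more than 2500 genes per cell, 2, 1, 0 and 16 without doublet-like cells, 1, 1, 0 and 1 with the stricter *Prrx1* limit (where the first 1 is *Eif3j2*, lower in the mutants), 2, 2, 0 and 2 with 5 of the 7 genes, 2, 12, 0 and 12 with *Fgf8* cells included, and 0, 1, 0 and 3 with a sex covariate. With all 9 libraries, added after seeing the data, they were 2, 10, 0 and 8. Leaving out each library gave 0 to 3, 1 to 11, 0 to 2 and 1 to 83. The cause of these differences was not tested. The replicate block gave 0, 2, 0 and 11, and the numbers mark no shared embryo. Same-numbered libraries had correlations of deviations between -0.32 and 0.09 over 3236 genes, and libraries with unlike numbers between -0.30 and 0.32. With 2 Wt libraries, the deviations of 1 mirror those of the other. A shared processing batch was not tested. The difference in the *Fgf8* share was -13.8 points with more than 2500 genes per cell (exact permutation p = 0.0238). It was -15.0 with the stricter *Prrx1* limit (p = 0.0357, exact) and -15.2 without thinning (p = 0.0476, exact). It was -14.6 without doublet-like cells (p = 0.0595, exact) and -16.8 with 5 of the 7 genes (p = 0.0595, exact). At 10000 UMIs, where Wt replicate 3 also dropped out, it was -5.20 (p = 0.643, exact). Without single libraries it ran from -19.7 to -5.38, the latter without Wt replicate 3. The ranges without single libraries were 0.359 to 0.751 points for the ectoderm share, -2.82 to 0.925 for *Wnt7a* and -2.57 to 2.77 for *En1*. No result changed direction while called; of 9016 values of named genes under alternatives, 8751 stayed on the same side of the threshold, 198 lost and 67 gained a call, and 665, none called, changed sign. Wt rests on 2 libraries in the expression tests, and libraries with about 20 members give little depth.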
